A study of Arabidopsis thaliana with 9 samples.

Results

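The genes described here are the enzymes of the jasmonate branch of oxylipin synthesis in Arabidopsis thaliana, from the lipoxygenases to OPR3, together with HPL1, the hydroperoxide lyase that draws on the same substrate. The genes were chosen with earlier results of these data known. They were taken by locus from a fixed set of 10 genes: LOX2, LOX3, LOX4, AOS, AOC1, AOC2, AOC3, AOC4, OPR3 and HPL1. Of these, 8 were among the 20777 loci of the deposited table. AOC1 (AT3G25760) and AOC2 (AT3G25770), which neighbour AOC3 on chromosome 3, were not among them and were not analysed here. No filter on low values was applied, so all 8 were tested.

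RNA came from the vegetative part of seedlings at growth stage 1.03, which had been raised in vitro (MS medium, 22 °C, days of 16 h light and nights of 8 h). It was hybridised to 9 ATH1 arrays, which carry probes for most Arabidopsis genes, with 3 biological repeats for each of 3 genotypes. The first genotype is labelled 35S::AVP1, a construct that drives the vacuolar proton pyrophosphatase AVP1 from a constitutive viral promoter. The second carries extra BRI1, the brassinosteroid receptor, and its labels name both pBRI1::BRI1 and 35S::BRI1, so its promoter is unsettled and it is called the BRI1 line. The third is wild type. The labels give the Col-0 ecotype for all 3, and they do not say how many transgenic lines or pooled seedlings an array stands for. Values are log2 levels made by the authors with RMA, and a log2 change is a difference of 2 such levels. The table has no detection calls, so dim genes are set against the 10th percentile of each array, which was 3.71 to 3.79.

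Oxylipins are oxygenated fatty acids. In the chloroplast, 13-lipoxygenases add oxygen to linolenic acid, and the resulting hydroperoxide has several fates. Allene oxide synthase (AOS) and allene oxide cyclase (AOC) turn it into OPDA, which OPR3 reduces in the peroxisome before rounds of β-oxidation yield jasmonic acid. Hydroperoxide lyase splits the same hydroperoxide instead, giving the leaf aldehydes and alcohols known as green leaf volatiles. Jasmonate acts in wound and insect defence, in growth restraint and in stamen development, and many genes of its own synthesis are induced by wounding. The Col-0 accession is known to carry an HPL1 allele with a small deletion that leaves its enzyme inactive.

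The labels were first set against the RNA of the genes they name. BRI1 (AT4G39400) averaged 12.28 ± 0.09 in the BRI1 line and 9.55 ± 0.03 in wild type (SD, n = 3 each). AVP1 (AT1G15690) averaged 12.54 ± 0.04 in the arrays labelled 35S::AVP1 and 12.63 ± 0.07 in wild type, so it was not higher in them (limma adjusted p = 0.489). No source used here says whether the AVP1 probes fall inside the construct, and these samples are called the arrays labelled 35S::AVP1 throughout. Of the 6 leaf markers fixed for the tissue, 3 were measured, and their mean log2 level was 13.6 to 13.7 on all 9 arrays.

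In the arrays labelled 35S::AVP1 the branch shifted in both directions relative to wild type. HPL1 rose 26.4-fold, while the jasmonate enzymes AOS and OPR3 fell 3.89-fold and 2.15-fold. Among the lipoxygenases LOX4 rose and LOX3 fell. In all 2 of the 8 measured genes rose, 3 fell and 3 did not pass the test (limma, adjusted p under 0.05 over all loci). By the same test 6.31% of all loci were higher and 4.76% lower, 11.1% in either direction. The levels of the 2 groups did not overlap for 7 of the 8 genes, against 28.4% of all loci. Since the genes were chosen with earlier results of these data known, these shares describe the set and do not test it. The median log2 change was 0.09 over the 8 genes and 0.05 over all loci, since large changes of opposite sign lie on both sides of it. In the BRI1 line 0 of the 8 genes passed the test. RNA from the whole vegetative part cannot tell a lower level per cell apart from fewer of the cells that hold a transcript.

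**Figure D1:**
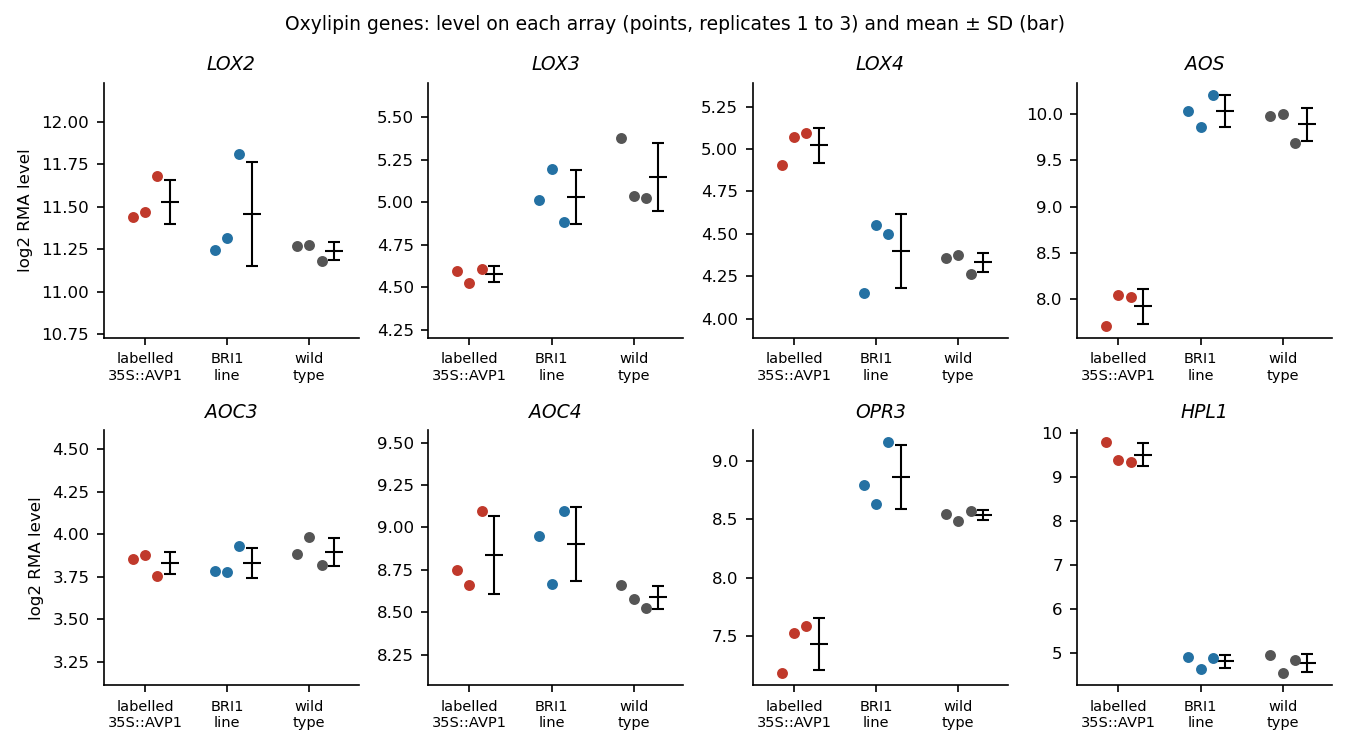
Log2 RMA level of the 8 measured oxylipin genes on each array, with a point for each replicate (1 to 3, left to right) and a bar at the mean ± SD of each genotype; each panel has its own vertical axis, which does not start at 0. AOS and OPR3 lie low and HPL1 high on the 3 arrays labelled 35S::AVP1, and the BRI1 line lies beside wild type for all 3 genes.

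The first step belongs to the 13-lipoxygenases. LOX2 (AT3G45140) supplies most of the jasmonate made at a leaf wound. Its log2 level was 11.44, 11.47 and 11.68 in the arrays labelled 35S::AVP1, 11.24, 11.31 and 11.81 in the BRI1 line, and 11.27, 11.27 and 11.18 in wild type. All 3 arrays labelled 35S::AVP1 lay above wild type, and in the BRI1 line 1 array stood apart from the other two. Between the arrays labelled 35S::AVP1 and wild type LOX2 had a log2 change of 0.29, with a 95% interval of -0.02 to 0.59 (limma adjusted p = 0.231). The fit pools the spread of all 3 genotypes, whose SDs were 0.13 (labelled 35S::AVP1), 0.31 (BRI1 line) and 0.05 (wild type), and without BRI1 line replicate 3 the adjusted p was 0.0642. The BRI1 line gave 0.21 (95% interval -0.09 to 0.52, limma adjusted p = 0.957), and 0.04 without BRI1 line replicate 3.

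LOX3 (AT1G17420) and LOX4 (AT1G72520), a pair of close relatives that act together in stamen development, went opposite ways. Both were low on the scale though above the 10th percentile, at percentiles 26.5 to 38.2 (LOX3) and 21.0 to 34.7 (LOX4) of the arrays. Background signal may limit the size of both changes. LOX3 had log2 levels of 4.60, 4.53 and 4.61 in the arrays labelled 35S::AVP1, 5.02, 5.20 and 4.88 in the BRI1 line, and 5.38, 5.04 and 5.03 in wild type. The arrays labelled 35S::AVP1 were the lowest of all 9, and the ranges of the BRI1 line and wild type overlapped. The log2 level of LOX3 fell by 0.57 with an SE of 0.11 (1.48-fold lower, 95% interval -0.82 to -0.32; limma adjusted p = 0.00844). Wild type replicate 1 held the highest LOX3 level, and without it the change was -0.45 (limma adjusted p = 0.0169).

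That wild type array also stood apart in genes known to respond within minutes to touch or wounding. The mean log2 level of 10 such genes was 8.36 in wild type replicate 1, against 5.86 to 6.87 on the other 8 arrays. Over the whole list 1 of 10 fell in the arrays labelled 35S::AVP1, the deadenylase gene CAF1A (-1.81), and 0 rose. That share is near the 11.1% of all loci called in either direction. The median log2 change of the list was -0.90, against 0.05 over all loci. The CAF1A call was lost without each of 7 of the 9 arrays (adjusted p up to 0.119), and it held without wild type replicate 1 or 3. It was also lost with a trended robust prior and with only the 2 genotypes fitted (adjusted p up to 0.131), and its value ran from -2.45 to -1.15 without 1 array. The part of the touch response in the LOX3 change was not tested beyond leaving that array out.

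LOX4 had log2 levels of 4.90, 5.07 and 5.09 in the arrays labelled 35S::AVP1, 4.15, 4.55 and 4.50 in the BRI1 line, and 4.36, 4.37 and 4.27 in wild type. The arrays labelled 35S::AVP1 were the highest of all 9, and the other genotypes overlapped. The log2 level of LOX4 rose by 0.69 with an SE of 0.11 (1.61-fold, 95% interval 0.45 to 0.93; limma adjusted p = 0.00228). No source used here says whether LOX3 and LOX4 probes read one another's transcripts, which was not tested. In the BRI1 line the log2 changes of LOX3 and LOX4 were -0.11 and 0.07 (limma adjusted p = 0.985 and 0.998).

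Other lipoxygenases did not pass the test in either line. LOX6, the remaining 13-lipoxygenase, had a log2 change of -0.08 in the arrays labelled 35S::AVP1. LOX1 and LOX5, which oxygenate fatty acids at a different carbon, had changes of 0.24 and -0.02. LOX1 averaged 6.65 ± 0.11 in the arrays labelled 35S::AVP1 and 6.42 ± 0.10 in wild type (SD, n = 3 each), without overlap (limma adjusted p = 0.112). Upstream of all lipoxygenases, 0 of 5 measured desaturase and lipase genes passed in either line, and at an unadjusted p under 0.05 also 0 of 5.

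AOS (AT5G42650, chromosome 5) encodes the cytochrome P450 CYP74A, which commits the hydroperoxide to jasmonate. Its log2 level was 7.709, 8.047 and 8.024 in the arrays labelled 35S::AVP1, 10.033, 9.857 and 10.210 in the BRI1 line, and 9.976, 10.003 and 9.682 in wild type. The highest array labelled 35S::AVP1 lay 1.64 below the lowest wild type array, and the BRI1 line overlapped with wild type. The log2 level of AOS fell by 1.96 with an SE of 0.13 (95% interval -2.25 to -1.68; limma adjusted p = 6.40e-06). A more negative change than that of AOS was found at 65 of the 20777 loci. The BRI1 line differed from wild type in AOS by 0.15 (95% interval -0.14 to 0.43) on the log2 scale (limma adjusted p = 0.981), and by 0.04 to 0.23 without 1 array.

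Of the 2 loci measured on either side of AOS, 1 passed the test and it rose. ATS (AT5G42630, 0.27), AT5G42640 (0.05) and AT5G42660 (0.01) did not pass the test, and AT5G42670 rose by 0.86 on the log2 scale (limma adjusted p = 0.000243). AT5G42670 averaged 8.26 ± 0.16 in the arrays labelled 35S::AVP1, 7.43 ± 0.03 in the BRI1 line and 7.40 ± 0.12 in wild type (SD, n = 3 each).

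Allene oxide cyclase makes the ring of OPDA, and 2 of its 4 genes were measured. AOC4 (AT1G13280) had log2 levels of 8.75, 8.66 and 9.10 in the arrays labelled 35S::AVP1, 8.95, 8.67 and 9.10 in the BRI1 line, and 8.66, 8.58 and 8.53 in wild type. Wild type was the lowest group, but the lowest array of each line lay within 0.01 of the highest wild type array. Against wild type AOC4 had a log2 change of 0.25 with a 95% interval of -0.04 to 0.54 in the arrays labelled 35S::AVP1 (limma adjusted p = 0.285), and of 0.12 without replicate 3 of that label. The BRI1 line gave 0.31 with a 95% interval of 0.02 to 0.61 (limma adjusted p = 0.902). AOC3 (AT3G25780) lay near the bottom of the scale on all arrays, at 3.75 to 3.88 (labelled 35S::AVP1), 3.78 to 3.93 (BRI1 line) and 3.82 to 3.98 (wild type). These levels are close to the 10th percentile. The log2 change of AOC3 was -0.06 for the label 35S::AVP1 and -0.07 for the BRI1 line, each with a 95% interval of -0.23 to 0.10.

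OPR3 (AT2G06050) encodes the reductase that takes OPDA on toward jasmonic acid in the peroxisome. Its log2 level was 7.18, 7.52 and 7.59 in the arrays labelled 35S::AVP1, 8.80, 8.63 and 9.17 in the BRI1 line, and 8.55, 8.49 and 8.57 in wild type. The 3 genotypes did not overlap, in the order labelled 35S::AVP1, wild type, BRI1 line, and the gap between the last pair was 0.06. The log2 level of OPR3 fell by 1.11 in the arrays labelled 35S::AVP1, with an SE of 0.14 (95% interval -1.42 to -0.79; limma adjusted p = 0.000682). In the BRI1 line its log2 change was 0.33 (95% interval 0.01 to 0.65), which passed at an unadjusted p of 0.0427 but not over all loci (limma adjusted p = 0.926). Without BRI1 line replicate 3, the highest array, that change was 0.18.

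HPL1 (AT4G15440, chromosome 4) encodes the cytochrome P450 CYP74B2 and competes with AOS for the hydroperoxide. Its log2 level was 9.79, 9.38 and 9.32 in the arrays labelled 35S::AVP1, 4.92, 4.64 and 4.89 in the BRI1 line, and 4.95, 4.54 and 4.84 in wild type. The lowest array labelled 35S::AVP1 lay 4.38 above the highest wild type array, while the BRI1 line stayed inside the wild type range. The log2 level of HPL1 rose by 4.72 with an SE of 0.14 (95% interval 4.40 to 5.04; limma adjusted p = 2.12e-08), and 1 other locus of the 20777 had a larger rise. Its wild type level was low on the scale though above the 10th percentile, so background signal may limit that fold. How well the probes match the transcripts of each line was not tested for this or any other gene.

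Of the 2 loci measured on either side of HPL1, 0 passed the test. AT4G15420 (-0.01), AT4G15430 (-0.14), AT4G15460 (0.09) and AT4G15470 (-0.07) had log2 changes whose limma adjusted p ran from 0.536 to 0.977. The BRI1 line differed from wild type in HPL1 by 0.04 (95% interval -0.28 to 0.36) on the log2 scale (limma adjusted p = 0.999).

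**Figure D2:**
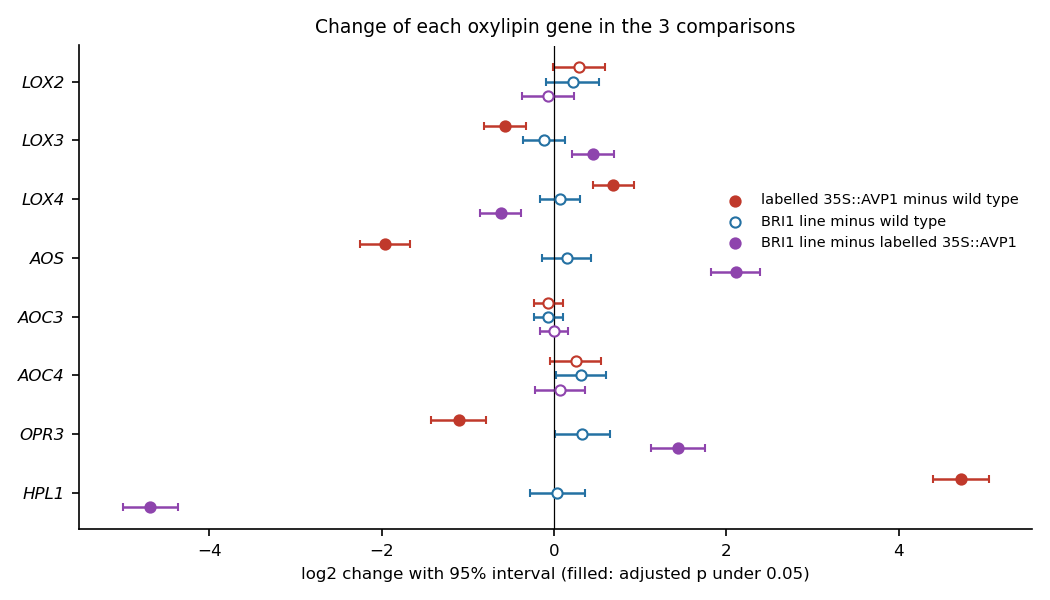
Log2 change of each gene (horizontal axis) with its 95% interval from the limma fit, for the 3 comparisons, where filled points passed an adjusted p under 0.05. In the arrays labelled 35S::AVP1 minus wild type, HPL1 (4.72) and LOX4 (0.69) lie right of 0 and LOX3 (-0.57), OPR3 (-1.11) and AOS (-1.96) left of it; all points of the BRI1 line minus wild type are open.

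In the BRI1 line, 17 of the 20777 loci (0.0818%) passed the test in either direction, and none of the oxylipin genes was among them. At an unadjusted p under 0.05, 2 of the 8 passed, AOC4 and OPR3, and at that threshold 5.3% of all loci passed. The same 2 genes were those whose levels did not overlap with wild type, against 10.1% of all loci. The median log2 change was 0.11 over the 8 genes and -0.01 over all loci. The intervals bound what could have been missed: the widest of the 8, for HPL1, ran from -0.28 to 0.36, and the highest upper bound was 0.65, for OPR3.

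The 2 lines were also compared directly. The BRI1 line was higher in AOS (log2 change 2.11), OPR3 (1.44) and LOX3 (0.46) and lower in HPL1 (-4.68) and LOX4 (-0.62) than the arrays labelled 35S::AVP1, and LOX2, AOC3 and AOC4 did not pass. That makes 3 of 8 higher and 2 lower, against 4.05% and 6.27% of all loci (10.3% in either direction). The 5 genes that passed were those whose levels did not overlap between the lines, against 30.3% of all loci. The limma adjusted p ran from 1.98e-08 for HPL1 to 0.0267 for LOX3. The LOX3 call between the lines failed when any of 5 arrays was left out, namely replicates 1, 2 and 3 labelled 35S::AVP1 and BRI1 line replicates 1 and 2 (adjusted p 0.0594 to 0.0919), with values of 0.37 to 0.47. This comparison shares its arrays with both comparisons against wild type and is not independent of them.

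The jasmonate genes OPR3, LOX2, AOC4 and AOS were picked out here after their values were seen. In the BRI1 line these 4 deviated from their means in the same direction in 2 of the 3 arrays. Arrays of the other genotypes did so too. In BRI1 line replicate 3, OPR3 lay 0.30, LOX2 0.35, AOC4 0.19 and AOS 0.18 above the mean of the line on the log2 scale, while LOX3 lay 0.15 below it. In BRI1 line replicate 2 the deviations of OPR3 (-0.23), LOX2 (-0.14), AOC4 (-0.24) and AOS (-0.18) were negative. There AOC3 (-0.05) also lay below its mean, while LOX3 (0.17) and LOX4 (0.15) lay above theirs. Replicate 1 labelled 35S::AVP1 was below its mean for OPR3 (-0.25), LOX2 (-0.09), AOC4 (-0.09) and AOS (-0.22). Replicate 3 of that label was above it for OPR3 (0.16), LOX2 (0.15), AOC4 (0.26) and AOS (0.10). Wild type replicate 1 was above its mean for OPR3 (0.01), LOX2 (0.03), AOC4 (0.07) and AOS (0.09). The genes diverged in the remaining arrays. In wild type, OPR3 and AOS deviated by -0.05 and 0.12 in replicate 2 and by 0.04 and -0.20 in replicate 3. In replicate 2 labelled 35S::AVP1, OPR3 (0.09) and AOS (0.12) lay above their means and LOX2 (-0.06) and AOC4 (-0.17) below. After the genotype means were taken out, the deviations of OPR3 over the 9 arrays correlated at 0.80 with those of LOX2, 0.74 with AOS and 0.68 with AOC4. With LOX4 they correlated at 0.31, with AOC3 at 0.26, with HPL1 at -0.16 and with LOX3 at -0.45. These are descriptions over 9 arrays that share 3 fitted means, and the genes of an array also share its RNA and its normalization.

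**Figure D3:**
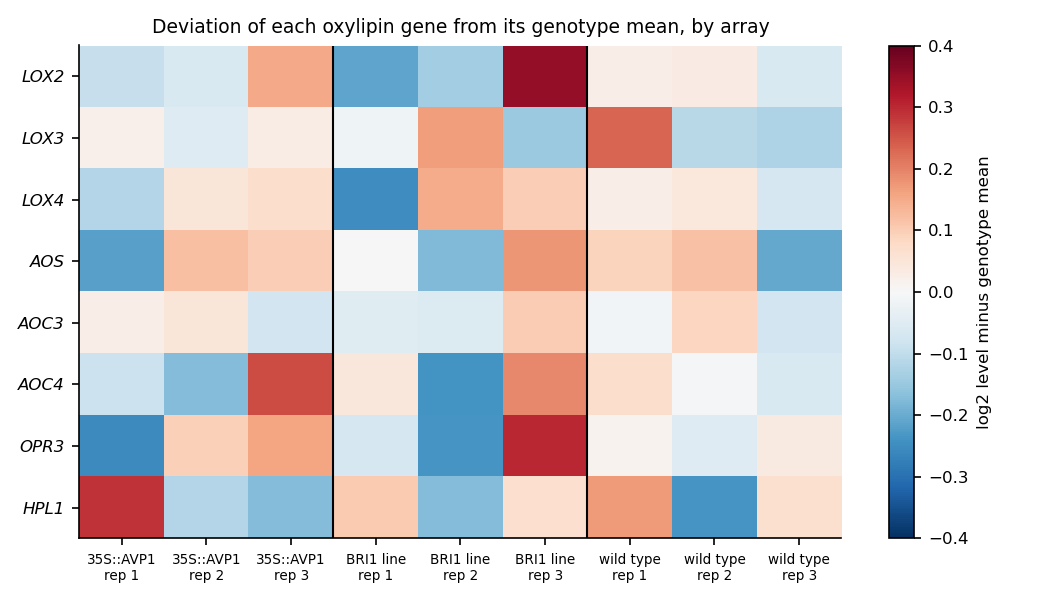
Deviation of each gene (rows) from the mean of its genotype on each array (columns), on the log2 scale, red above and blue below the mean. BRI1 line replicate 3 is above its mean for LOX2 (0.35), OPR3 (0.30), AOC4 (0.19) and AOS (0.18), and wild type replicate 1 is above its mean for LOX3 (0.23).

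Of the 6 root markers, PYK10 and EXPA7 were highest in that array of the BRI1 line and the other 4 in replicate 1 or 2. Their summed linear level was 4128 in BRI1 line replicate 3 and 3507 and 3074 in replicates 1 and 2, where PYK10, which dominates the sum, had log2 levels of 11.85, 11.57 and 11.39. Their part in the deviations of the oxylipin genes was not tested.

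The loci most like AOS and HPL1 over the 9 arrays were taken by Pearson correlation of levels. For AOS these were AOP2 (0.995), ATCG01110, AT1G11280, AT5G41140 and AT1G63880 (0.993 to 0.994), whose log2 changes in the arrays labelled 35S::AVP1 were -3.38 to -1.44. For HPL1 they were AOP3 (0.997), AT5G15360 (0.996), AT5G07630 and G6PD4 (0.995 each) and the pectin methylesterase gene ATPMEPCRB (0.995), with log2 changes of 0.57 to 5.95. AOP2 and AOP3 are neighbouring genes for the modification of glucosinolate side chains, and the gene table lists the Columbia AOP2 as a transcribed pseudogene. A correlation above 0.95 was found with AOS at 230 of the 20776 other loci and with HPL1 at 269. A high value is thus not particular to the loci named. AOS and HPL1 themselves correlated at -0.99 in level and at -0.34 in their deviations from the genotype means.

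The steps after OPR3 take place in the peroxisome. Of 7 measured genes for import into the peroxisome and β-oxidation, 3 rose and 0 fell in the arrays labelled 35S::AVP1, against 6.31% and 4.76% of all loci, with a median log2 change of 0.19 against 0.05 over all loci. PXA1, the transporter that imports the precursor, averaged 8.06 ± 0.02 in the arrays labelled 35S::AVP1 and 7.76 ± 0.03 in wild type (SD, n = 3 each; log2 change 0.31, limma adjusted p = 0.00784). The thiolase gene KAT2 (0.32, limma adjusted p = 0.0275) and the multifunctional protein gene AIM1 (0.25, limma adjusted p = 0.0340) rose less firmly, since AIM1 held in 2 and KAT2 in 5 of the 9 fits without 1 array. Both also failed after median centring and when only the 2 genotypes were fitted. OPCL1 and ACX1, which activate and shorten the side chain, had log2 changes of 0.00 and -0.04.

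Among enzymes that conjugate or inactivate jasmonate, 1 of 11 rose and 0 fell in the arrays labelled 35S::AVP1, a share near the 11.1% of all loci called, with a median log2 change of 0.04. The one gene called was ST2A, a sulfotransferase for hydroxyjasmonate, at 4.705, 5.082 and 4.498 in the arrays labelled 35S::AVP1 and 4.137, 4.221 and 3.996 in wild type (log2 change 0.64, limma adjusted p = 0.0193). The groups did not overlap, but the call failed without wild type replicate 3 or replicate 2 labelled 35S::AVP1 (adjusted p up to 0.0558). JAR1, which joins jasmonic acid to isoleucine to give the active hormone, had a log2 change of 0.14 (limma adjusted p = 0.216).

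**Figure D4:**
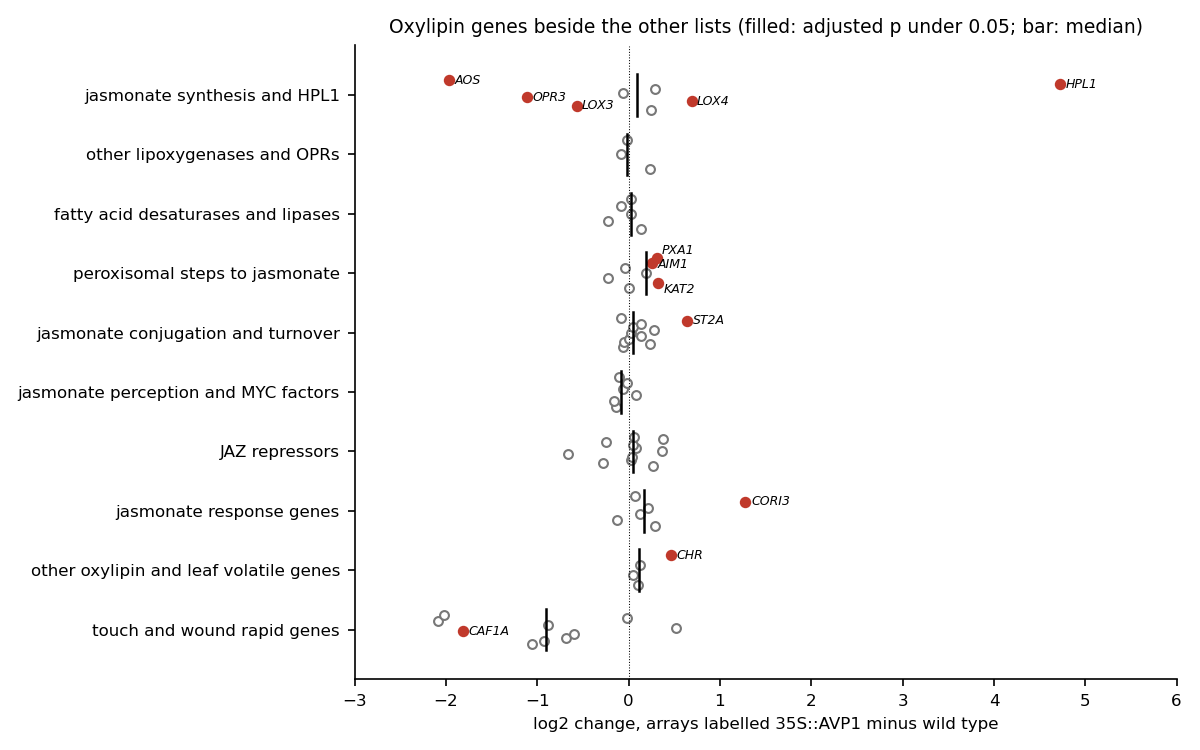
Log2 change in the arrays labelled 35S::AVP1 minus wild type for each measured gene (circles) of the oxylipin branch and of 9 related lists, with filled circles for an adjusted p under 0.05 and a bar at the median of each list. HPL1 (4.72) and AOS (-1.96) lie at the far right and left of the oxylipin row; in the JAZ row and the row of perception genes all circles are open.

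Genes of jasmonate perception and the JAZ repressors gave no calls. Of the receptor gene COI1, the factors MYC2, MYC3 and MYC4 and the corepressor genes NINJA and TPL, 0 of 6 passed in the arrays labelled 35S::AVP1, and 0 of 6 at an unadjusted p under 0.05. Of the JAZ repressors, whose transcripts are induced by jasmonate, 0 of 11 passed, and JAZ10 (0.37) and JAZ5 (0.27) had an unadjusted p under 0.05, as did 24.2% of all loci. These 2 genes were chosen after their values were seen. The mean log2 level of the 11 JAZ genes overlapped between genotypes, at 5.93 to 6.05 (labelled 35S::AVP1), 5.88 to 6.09 (BRI1 line) and 5.81 to 6.13 (wild type).

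Of 6 measured jasmonate response genes, 1 rose and 0 fell in the arrays labelled 35S::AVP1. Of all loci 6.31% were higher and 4.76% lower, 11.1% in either direction. CORI3, a coronatine- and jasmonate-induced lyase gene, had log2 levels of 11.06, 11.02 and 10.82 in the arrays labelled 35S::AVP1, 9.57, 9.77 and 10.03 in the BRI1 line, and 9.71, 9.64 and 9.72 in wild type. All 3 arrays labelled 35S::AVP1 lay above the other 6, and the BRI1 line and wild type overlapped (log2 change 1.28 against wild type, limma adjusted p = 6.03e-05). CLH1 (0.29), JR1 (0.21), TAT3 (0.13), the defensin gene PDF1.2 (0.07) and the thionin gene THI2.1 (-0.13) were not called. CLH1 and JR1 lay above wild type without overlap (limma adjusted p = 0.114 and 0.423). THI2.1 averaged 3.80 in the arrays labelled 35S::AVP1 and 3.93 in wild type, near the 10th percentile. The median log2 change of the 6 response genes was 0.17, against 0.05 over all loci.

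On the side of HPL1, 1 of 4 related genes rose and 0 fell in the arrays labelled 35S::AVP1, against 6.31% and 4.76% of all loci. CHR, the reductase that turns leaf hexenal into hexenol, had log2 levels of 10.78, 10.58 and 10.54 in the arrays labelled 35S::AVP1, 10.37, 10.01 and 10.18 in the BRI1 line, and 10.29, 10.14 and 10.07 in wild type. It was highest in the arrays labelled 35S::AVP1 without overlap (log2 change 0.47, limma adjusted p = 0.0195), and the call failed without wild type replicate 2 or 3 or replicate 1 labelled 35S::AVP1 (adjusted p up to 0.0732). CHAT, which acetylates hexenol, had a log2 change of 0.12 from a wild type level of 3.73, near the 10th percentile. The α-dioxygenase genes DOX1 and DOX2, which start another oxylipin route, had log2 changes of 0.05 and 0.10.

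By limma 0 genes of these lists passed in the BRI1 line. Those with an unadjusted p under 0.05 numbered 0 of 7 peroxisomal genes, 0 of 11 conjugation and turnover genes, 0 of 6 perception genes, 0 of 11 JAZ genes, 0 of 6 response genes and 0 of 4 related oxylipin genes. In the touch list 4 of 10 had an unadjusted p under 0.05, with a median log2 change of -1.15. Of all loci, 0.0818% were called and 5.3% had an unadjusted p under 0.05.

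Some markers of other organs also differed in the arrays labelled 35S::AVP1, and jasmonate genes are active in flowers. Of 6 flower markers 2 rose, SEP3 (1.80) and AG (0.57), and 0 fell, against 6.31% and 4.76% of all loci. AG averaged 3.96 in the arrays labelled 35S::AVP1 and 3.39 in wild type, where it lay below the 10th percentile. AP1 (0.06), AP3 (0.28), PI (0.05) and SEP1 (0.11) did not pass the test. The summed linear level of the 6 markers was 155 to 199 (labelled 35S::AVP1), 90.6 to 101 (BRI1 line) and 96.3 to 103 (wild type). The petal and stamen genes AP3 and PI averaged 4.05 and 4.29 in the arrays labelled 35S::AVP1 and 3.77 and 4.24 in wild type, low on the scale in both. Of 6 root markers 2 rose, PYK10 (0.86) and PHO1 (0.81), and 0 fell, against 6.31% and 4.76% of all loci. The root marker sums were 3979 to 4036, 3074 to 4128 and 2244 to 2545 in the same order of genotypes. The PHO1 call failed without wild type replicate 3 or replicate 1 labelled 35S::AVP1 (limma adjusted p up to 0.0742). SCR (-0.00017), SHR (-0.08), EXPA7 (0.17) and EXPA18 (0.18) did not pass the test. In the BRI1 line PYK10 also lay above wild type without overlap (log2 change 0.68, limma adjusted p = 0.0902). The table gives no level of 0 for any marker, and their part in the oxylipin changes was not tested.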

How the data were processed

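The authors made the deposited log2 values with RMA, per the submitters' processing notes. The RMA version, how probes were assigned to loci and which arrays were normalized as a set are not given in the sources used. The values of 9 arrays were used as deposited. Names came from a RefSeq gene table (TAIR10.1), which held 20508 of the 20777 loci. No sequences were used.

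All loci were fitted with limma 3.58.1 in R 4.3.3 (lmFit, eBayes), with a mean for each genotype and 6 residual and 3.94 prior degrees of freedom. The p-values of each of 3 contrasts were adjusted by Benjamini-Hochberg over the whole table, with calls at an adjusted p under 0.05; intervals are 95%. Arrays give no counts, so their number limits the precision. All p-values rest on the spread of the biological repeats.

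The oxylipin genes and 12 other lists were chosen with earlier results of these data known. The list genes that passed the test (up to 4 per list), 2 measured loci on each side of AOS and HPL1 and the 5 loci most like each were named by rule. On simulated data with independent noise the test recovered 50% of 100 loci changed by 0.5 and 94% of 100 changed by 1 in the arrays labelled 35S::AVP1 against wild type. Far fewer loci were changed there than the 2300 called in the real comparison, which alters the adjustment of p-values. These rates are therefore not the power of the reported tests.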

Additional observations from a re-analysis of the deposited data

How the results depend on the processing

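The 5 calls in the arrays labelled 35S::AVP1 against wild type kept their direction and passed under quantile normalization, median centring, removal of loci with a mean below the 25th percentile, a trended robust prior, a fit of only the 2 genotypes, a replicate block and each of the 9 fits without 1 array. Removal of dim loci dropped AOC3. With the replicate number as a block, 2 genes again rose and 3 fell, and 2602 loci were called in place of 2300; the BRI1 line gave 23 in place of 17 and the comparison between lines 2382 in place of 2144, and no call among the oxylipin genes changed. No label ties a number to a batch. Deviations of arrays that share a number correlated at 0.02 to 0.48, over 0.1 in 5 of 9 pairs. Those of arrays with different numbers correlated at -0.50 to 0.49, over 0.1 in 2 of 18 pairs. In the BRI1 line against wild type 7 loci were called when only those 2 genotypes were fitted, where fewer arrays estimate the spread, and 3 to 10 without 1 array. Between the lines, 1298 to 2419 loci were called without 1 array, 1298 without BRI1 line replicate 3, and the number of oxylipin genes called higher was 2 to 3. Of the loci called, 57.0% were higher in the arrays labelled 35S::AVP1 as deposited, 49.1% with quantile normalization and 47.3% with median centring; in the BRI1 line these shares were 47.1%, 64.3% and 64.7%, and between the lines 39.2%, 52.4% and 56.4%.

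Signs changed only for values that did not pass the test, and the cause was not tested. Without 1 array, the BRI1 line against wild type gave -0.20 to 0.0014 for LOX3, -0.0065 to 0.19 for LOX4 and -0.079 to 0.13 for HPL1, and the comparison between the lines gave -0.25 to 0.032 for LOX2, -0.051 to 0.026 for AOC3 and -0.031 to 0.20 for AOC4. Between the lines AOC3 was -0.00057 as deposited, 0.03 under quantile normalization and 0.057 under median centring.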
